A study of Homo sapiens with 4 samples.

Results

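Immediate early genes are transcribed within minutes of a stimulus, without new protein synthesis, and most of them encode transcription factors that pass the signal on to later genes. Growth factor signals reach them through the ERK kinases, which act on ternary complex factors and serum response factor at their promoters, while cell stress reaches them through the JNK and p38 kinases. Enzymatic dissociation of solid tissue at warm temperature is itself known to switch on this gene group together with heat-shock genes, so in single-cell data from digested tumours their levels carry both the state of the tissue and its handling. The 10 genes described here were FOS, FOSB, JUN, JUNB, EGR1, ATF3, IER2, IER5, KLF4 and KLF6, out of 36601 human genes in the files. The list was given by name, and it was chosen with earlier results of these data known. IER2 and IER5 are nuclear proteins without a classical DNA-binding domain, so the group is called immediate early genes here. Each human gene was set beside the mouse gene of the same name, 10 of 32285 mouse genes, in the same barcodes. Human RNA comes from the tumour cells and mouse RNA from the host, and both went through the same digestion.

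The study grew PANC-1 cells, a human pancreatic ductal adenocarcinoma line, as tumours under the skin of nude mice, which lack a thymus and mature T cells but keep macrophages and fibroblasts. Tumour-bearing mice received agrimoniin (an ellagitannin of agrimony plants), erlotinib (which blocks the tyrosine kinase of the growth factor receptor EGFR), both compounds together (combination), or the carrier alone (control). Erlotinib is the name in the sample labels, and cyranin stands in its place in the series' design text; the labels were used. Doses, treatment times, host sex and age and the number of tumours behind a library are not given in the sources used here. Each of the 4 groups had 1 library, so replicate error is unknown, no test across samples was possible, and each comparison is between libraries rather than treatments. The 3 comparisons with control share that library.

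The agrimoniin, erlotinib, combination and control libraries held 297, 306, 251 and 202 barcodes with 5133188, 5301915, 4050572 and 3656549 UMIs (unique molecular identifiers, counts of captured RNA molecules). Every barcode held UMIs of both species, so the human UMIs of a barcode are called its human part and the mouse UMIs its mouse part, and several cells can lie behind 1 part. After a filter on UMIs, genes and mitochondrial share, 283, 292, 245 and 193 human parts remained, and no barcode was shared between libraries. The median human share of a barcode's UMIs was 75.5% in agrimoniin, 75.6% in erlotinib, 79.6% in combination and 68.5% in control. Of the epithelial tumour markers, KRT8 was at 36.0 to 49.2 and KRT18 at 47.1 to 65.4 counts per 1e6 human UMIs (CPM), and EPCAM at 18.2 to 25.2 CPM. The other markers of the list were near absent. KRT19 was at 0 to 0.530 CPM, KRT7 at 0.813 to 1.24 CPM, CDH1 at 0.643 to 1.85 CPM and MUC1 at no more than 4.61 CPM. In a sum over many parts, more cells expressing a gene and more RNA per cell cannot be told apart.

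Promoter sequences are shown first for the genes on which the human results turn. EGR1 is the classical target of serum response factor, whose binding motif is the CArG box, and IER5 and KLF4 were the human members furthest from control. Sequences are RefSeq promoters on GRCh38.p14, from 250 bases before to 50 bases after the transcription start, read 5′ to 3′ on the strand of the gene, and all 10 members were matched. Capitals mark CArG boxes in EGR1 and a heat-shock element pair (GAANNTTC) in IER5, and KLF4 held none of the marked motifs. In GENCODE 29 (GRCh38) the protein-coding gene EGR1 spans chr5:138465490-138469315, IER5 spans chr1:181088712-181092899 and KLF4 spans chr9:107484852-107490482.
EGR1: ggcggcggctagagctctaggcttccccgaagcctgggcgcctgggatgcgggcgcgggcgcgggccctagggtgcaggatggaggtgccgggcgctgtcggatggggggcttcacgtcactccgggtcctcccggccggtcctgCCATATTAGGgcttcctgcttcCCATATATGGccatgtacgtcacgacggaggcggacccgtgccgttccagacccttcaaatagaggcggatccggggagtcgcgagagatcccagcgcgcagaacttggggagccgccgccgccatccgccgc
IER5: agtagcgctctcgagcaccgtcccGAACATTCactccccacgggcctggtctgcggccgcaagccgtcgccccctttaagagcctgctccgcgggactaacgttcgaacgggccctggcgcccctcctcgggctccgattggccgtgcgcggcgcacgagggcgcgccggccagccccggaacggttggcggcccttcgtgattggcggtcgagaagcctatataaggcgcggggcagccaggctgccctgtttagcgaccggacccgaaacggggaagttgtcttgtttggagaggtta
KLF4: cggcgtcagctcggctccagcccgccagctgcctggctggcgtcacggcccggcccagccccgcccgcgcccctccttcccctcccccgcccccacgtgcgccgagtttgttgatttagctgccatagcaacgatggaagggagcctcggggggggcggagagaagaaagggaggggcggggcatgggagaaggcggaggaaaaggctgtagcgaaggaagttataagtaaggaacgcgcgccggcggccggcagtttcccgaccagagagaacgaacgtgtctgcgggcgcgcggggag
The EGR1 stretch is chr5:138465229-138465528 on the plus strand, the IER5 stretch is chr1:181088450-181088749 on the plus strand and the KLF4 stretch is chr9:107489720-107490019 on the minus strand. EGR1 held 2 CArG boxes, the first at position -105 from the transcription start, and CArG boxes were found in 1.29% of the 35116 promoters of the same length. The heat-shock pair started at position -226 from the transcription start of IER5 and at -150 from that of JUN, and 6.77% of all promoters held it. The ETS core CCGGAA was in the promoters of FOSB, IER2 and IER5 and in 17.2% of all promoters, and TATAAA was in those of FOS, FOSB, JUNB and ATF3 and in 11.5% of all. The AP-1 site TGACTCA, found in 4.95% of all promoters, and the cAMP element TGACGTCA, found in 1.85%, were in no member promoter within this window. Motifs were searched on both strands, none of the marked ones overlap, and a match is a match of letters only.

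In the tumour cells, the 10 genes together took 6408 CPM in agrimoniin, 6296 CPM in erlotinib and 6499 CPM in combination, against 6594 CPM in control. Over all parts, the sum thus lay within a narrow band in all 4 libraries, and the largest differences sat in single genes. IER5 was lower in agrimoniin and combination, KLF4 and FOSB were lower in erlotinib, and IER2 was lower in combination. In human parts above 10% mitochondrial UMIs the sum was 5064 CPM in agrimoniin and 5079 CPM in erlotinib, against 6195 CPM in control. It was 6506 CPM in combination. Each member was lower in agrimoniin than in control in those parts. In the host cells of the same barcodes, the 10 mouse genes together took 23107 CPM of mouse UMIs in agrimoniin, 16332 CPM in erlotinib and 24878 CPM in combination, against 15569 CPM in control.

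**Figure D1:**
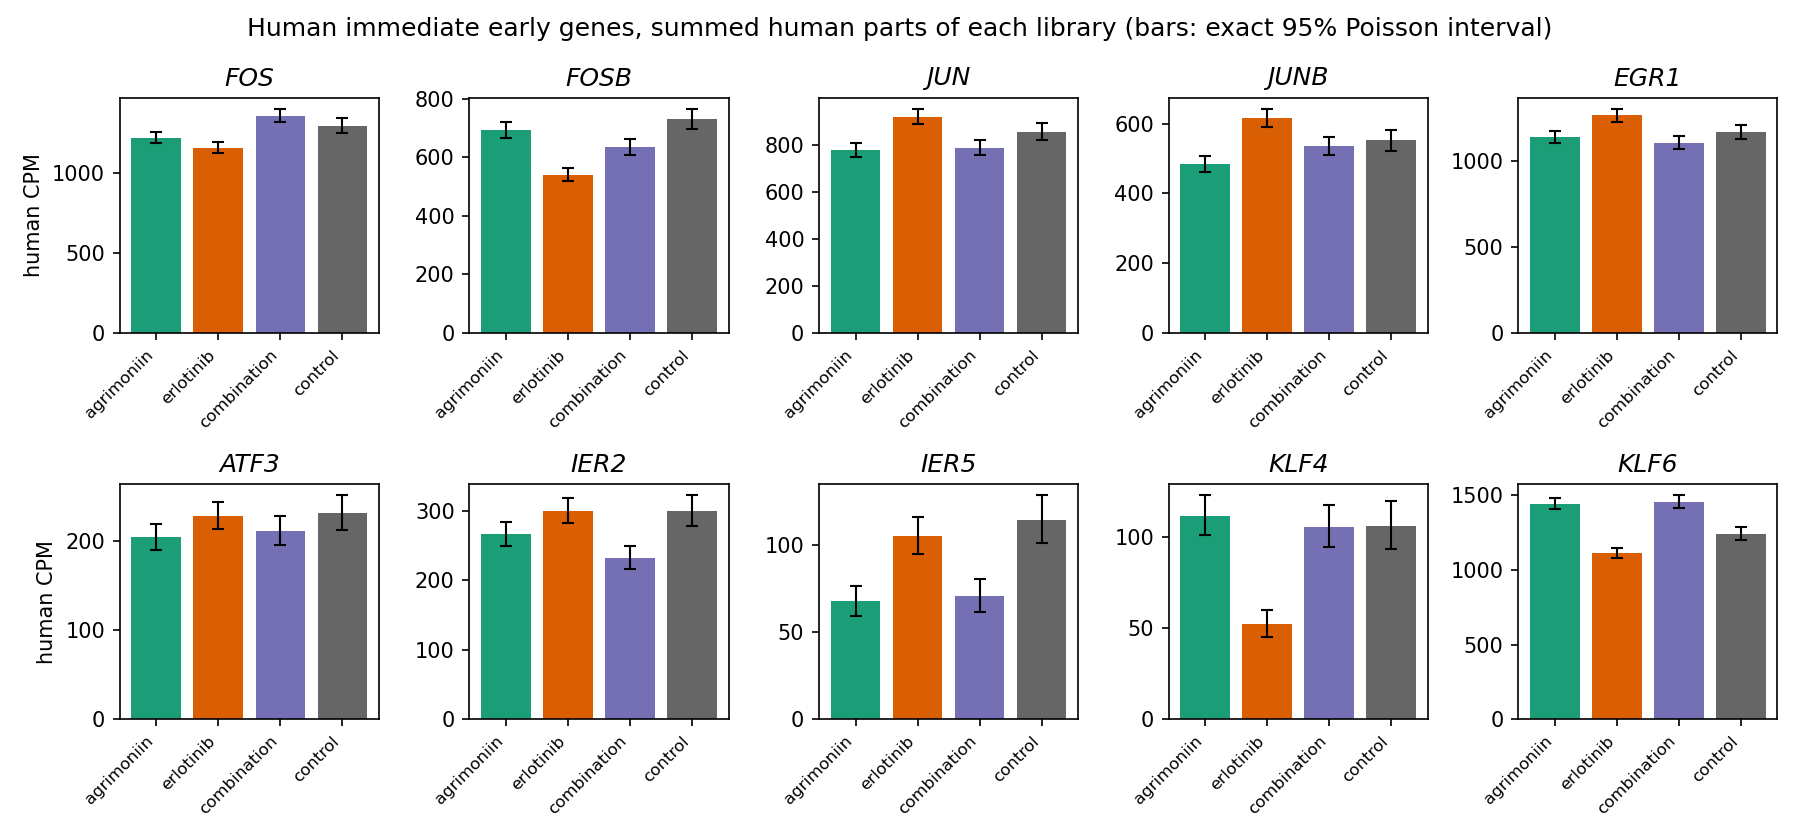
Level of each human gene in the summed human parts of each library, in counts per 1e6 human UMIs (vertical axes, from 0, a scale of its own for each gene). Bars show agrimoniin, erlotinib, combination and control, and whiskers the exact 95% Poisson interval, which covers counting error only; IER5 is low in agrimoniin and combination and KLF4 in erlotinib.

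The FOS and JUN proteins pair through leucine zippers to form the transcription factor AP-1. FOS, the founding member, was at 1220 CPM in agrimoniin (95% interval from counting error 1185 to 1256), 1157 CPM in erlotinib (1123 to 1192) and 1358 CPM in combination (1317 to 1399), against 1297 CPM in control (1252 to 1343). Combination was highest and erlotinib lowest, and each level's interval overlapped that of its neighbour in this order. FOSB, a FOS relative with its own short isoform, was at 692 CPM in agrimoniin, 540 CPM in erlotinib and 635 CPM in combination, against 729 CPM in control. The erlotinib level was the lowest, 1.35-fold lower than control (interval 1.27 to 1.44), and the intervals of agrimoniin and control overlapped. Over barcodes of at least 75% human UMIs the erlotinib log2 ratio of FOSB was -0.30, short of the threshold given below, against -0.43 over all barcodes. JUN, the main partner of FOS, was at 777 CPM in agrimoniin, 920 CPM in erlotinib and 788 CPM in combination, against 855 CPM in control. Erlotinib was highest at 1.08 times control (interval 1.02 to 1.14), and agrimoniin and combination, both lower than control, overlapped in their intervals. JUNB, a JUN relative often described as a weaker activator, was at 484 CPM in agrimoniin, 616 CPM in erlotinib and 536 CPM in combination, against 552 CPM in control. Over all parts, only FOSB in erlotinib of these 4 AP-1 genes differed from control by a log2 ratio of 0.32 or more in size, the threshold used throughout. In human parts above 10% mitochondrial UMIs, FOSB, JUN and JUNB were also lower past it in agrimoniin. They were at 535, 624 and 377 CPM there, against 680, 817 and 496 CPM in control. Under 75% human UMIs, FOS at 1012 CPM in erlotinib and FOSB at 556 CPM in combination were lower past it. Control was at 1351 CPM for FOS and 712 CPM for FOSB in those barcodes.

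EGR1, a zinc-finger factor that is a standard readout of ERK signalling, was at 1140 CPM in agrimoniin, 1265 CPM in erlotinib and 1106 CPM in combination, against 1168 CPM in control. Over all parts it was therefore highest in the library of the EGFR inhibitor, at 1.08 times control (interval 1.03 to 1.14). In human parts above 10% mitochondrial UMIs EGR1 was at 752 CPM in agrimoniin, 989 CPM in erlotinib and 1055 CPM in combination, against 1020 CPM in control. Agrimoniin was thus lower than control past the threshold in those parts. Beside macrophage-like mouse parts, a split chosen after seeing the data, its erlotinib log2 ratio to control was -0.13. ATF3, a stress-induced relative of the AP-1 proteins that often represses its targets, was at 204 CPM in agrimoniin, 228 CPM in erlotinib and 211 CPM in combination, against 231 CPM in control. Neighbouring ATF3 levels overlapped in their counting intervals across all 4 libraries.

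IER2, a nuclear protein linked to cell motility, was at 266 CPM in agrimoniin, 300 CPM in erlotinib and 232 CPM in combination, against 300 CPM in control. Combination was 1.29-fold lower than control (interval 1.16 to 1.43), and erlotinib was 1.00 times control. With each part weighted equally, the combination log2 ratio of IER2 was -0.28, under the threshold, against -0.37 over summed UMIs. IER5, which binds the phosphatase PP2A and the heat-shock factor HSF1, was at 67.7 CPM in agrimoniin (interval 59.6 to 76.7), 105 CPM in erlotinib (95.3 to 116) and 70.8 CPM in combination (61.7 to 80.7), against 114 CPM in control (101 to 129). The levels fell into a low pair, agrimoniin and combination, and a high pair, erlotinib and control, with no overlap of intervals between the pairs. This place of erlotinib held for the sum over all parts, where its log2 ratio to control was -0.12. Beside macrophage-like mouse parts the ratio was -0.64, lower than control past the threshold, and beside fibroblast-like ones it was 0.37, higher past it, a split chosen after seeing the data. IER5 was 1.69-fold lower than control in agrimoniin (interval 1.42 to 2.01) and 1.62-fold lower in combination (1.35 to 1.94).

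KLF4, a Krüppel-like factor of epithelial differentiation and stem-cell reprogramming, was at 112 CPM in agrimoniin (interval 101 to 123), 52.2 CPM in erlotinib (45.1 to 60.0) and 106 CPM in combination (94.7 to 118), against 106 CPM in control (93.6 to 120). Erlotinib stood alone, 2.04-fold lower than control (interval 1.68 to 2.46), while the other intervals overlapped. Beside fibroblast-like mouse parts the KLF4 log2 ratio of erlotinib to control was -0.42, beside macrophage-like ones it was -1.64, and over all parts it was -1.03. In human parts with at most 10% mitochondrial UMIs it was -0.62, and the log2 ratio of agrimoniin to control was then 0.55, past the threshold. KLF4 in parts above 10% was at 65.5 CPM in agrimoniin, 34.2 CPM in erlotinib and 88.4 CPM in combination, against 116 CPM in control. The agrimoniin difference thus turned direction between these sets of parts. KLF6, a relative first described as a tumour suppressor, was at 1445 CPM in agrimoniin, 1112 CPM in erlotinib and 1457 CPM in combination, against 1241 CPM in control. Agrimoniin and combination were 1.16 and 1.17 times control, short of the threshold. In barcodes with at least 75% human UMIs these log2 ratios were 0.04 and 0.01, against 0.22 and 0.23 over all barcodes. Under 75%, KLF6 was at 1344 CPM in agrimoniin and 1403 CPM in combination, against 1047 CPM in control, both past the threshold.

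Counted over the group and over all parts, 0 of 10 human members were higher and 1 of 10 lower past this threshold in agrimoniin against control. Of 4015 human genes at 50 CPM or more, 6.25% were higher and 5.21% lower there. In erlotinib 0 were higher and 2 lower, beside 7.13% higher and 6.98% lower among 3998 genes. In combination 0 were higher and 2 lower, beside 6.86% higher and 7.31% lower among 4009 genes. The median log2 ratio of the members was -0.11 in agrimoniin, -0.07 in erlotinib and -0.10 in combination, and the median over all these genes was 0.02 in each comparison. Among only 10 genes, a count of 1 or 2 cannot be told from these shares.

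Between treated libraries, adding agrimoniin to erlotinib went with higher KLF4 and KLF6 and lower IER5 and IER2. KLF4 in combination was 2.03 times erlotinib (interval 1.69 to 2.43) and KLF6 was 1.31 times erlotinib (1.26 to 1.37). IER5 in combination was 1.49-fold lower than in erlotinib (interval 1.26 to 1.76) and IER2 1.29-fold lower (1.18 to 1.42). These are 2 members higher and 2 lower, beside 4.9% of 4019 genes higher and 4.93% lower. Over all parts, combination against agrimoniin had 0 members past the threshold in either direction, beside 7.9% of 4037 genes. Its member ratios ran from 0.872 for IER2 to 1.11 for FOS. In human parts above 10% mitochondrial UMIs each member was higher in combination than in agrimoniin. FOS there was at 1609 CPM against 1229 CPM and EGR1 at 1055 CPM against 752 CPM, both past the threshold. In parts with at most 10%, IER2 was lower past it, at 244 CPM in combination against 309 CPM in agrimoniin. EGR1 in those parts was at 1136 CPM against 1400 CPM, short of it. Erlotinib against agrimoniin had 2 higher members, JUNB and IER5, beside 4.57% of 4044 genes, and 3 lower members, FOSB, KLF4 and KLF6, beside 5.37%. KLF4 was 2.14-fold lower in erlotinib than in agrimoniin (interval 1.80 to 2.55).

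The mouse genes of the same name followed another pattern. Fos was at 5617 CPM of mouse UMIs in agrimoniin, 3142 CPM in erlotinib and 5877 CPM in combination, against 3632 CPM in control. Fosb was at 4328 CPM in agrimoniin, 2396 CPM in erlotinib and 3663 CPM in combination, against 2564 CPM in control. Both were higher than control in the 2 libraries with agrimoniin and slightly lower in erlotinib. Jun was at 2524 CPM in agrimoniin, 2124 CPM in erlotinib and 3140 CPM in combination, against 1930 CPM in control. Junb was at 1027 CPM in agrimoniin, 935 CPM in erlotinib and 1269 CPM in combination, against 589 CPM in control. For both Jun genes all treated libraries were higher than control, and combination was highest, with Junb at 2.16 times control (interval 1.95 to 2.38).

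Egr1 was at 2947 CPM in agrimoniin, 2679 CPM in erlotinib and 4028 CPM in combination, against 2721 CPM in control. Combination was 1.48 times control (interval 1.41 to 1.55). Over all barcodes agrimoniin was 1.08 times control (1.03 to 1.14), above it beyond counting error but short of the threshold. In the fibroblast-like mouse parts described below, the agrimoniin log2 ratio of Egr1 was 0.38 (interval 0.30 to 0.46), past the threshold. In macrophage-like parts it was 0.09. Where the human part had at most 10% mitochondrial UMIs it was 0.39, also past the threshold. Atf3 was at 1503 CPM in agrimoniin, 1230 CPM in erlotinib and 1398 CPM in combination, against 794 CPM in control. Ier2 was at 414 CPM in agrimoniin, 312 CPM in erlotinib and 455 CPM in combination, against 281 CPM in control. Ier5 was at 600 CPM in agrimoniin, 573 CPM in erlotinib and 906 CPM in combination, against 455 CPM in control. Ier5 in combination was 1.99 times control (interval 1.78 to 2.24), opposite in direction to human IER5. The agrimoniin log2 ratio of Ier5 was 0.40, and 0.28, short of the threshold, where the human part had at most 10% mitochondrial UMIs. Klf4 was at 1104 CPM in agrimoniin, 673 CPM in erlotinib and 972 CPM in combination, against 574 CPM in control. Klf6 was at 3044 CPM in agrimoniin, 2269 CPM in erlotinib and 3169 CPM in combination, against 2027 CPM in control. For both Klf genes agrimoniin and combination were high, and erlotinib lay closer to control. Over barcodes of at least 75% human UMIs, results of the 2 libraries with agrimoniin that fell short of the threshold were Jun in agrimoniin, with a log2 ratio of 0.24 against 0.39 over all barcodes, and Atf3 in combination, with 0.23 against 0.82.

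By count, 9 of 10 mouse members were higher than control past the threshold in agrimoniin and 0 lower, beside 19.6% of 3795 mouse genes higher and 18.5% lower. In erlotinib 3 were higher (Junb, Atf3 and Ier5) and 0 lower, beside 21.2% of 3784 genes higher and 18.2% lower. In combination all 10 were higher, beside 18.9% of 3753 genes higher and 20.7% lower. The median log2 ratio of the 10 mouse genes was 0.61 for agrimoniin, 0.16 for erlotinib and 0.70 for combination, beside medians of 0.00, 0.01 and -0.02 over all mouse genes at 50 CPM or more. Over barcodes of at least 75% human UMIs the erlotinib median was -0.11, so the direction of the small erlotinib difference depended on which barcodes were counted. In those barcodes the erlotinib log2 ratios of Atf3 and Ier5 were 0.22 and 0.27, both short of the threshold, and Fos, Jun and Ier2 were lower than control past it, at -0.85, -0.32 and -0.52.

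**Figure D2:**
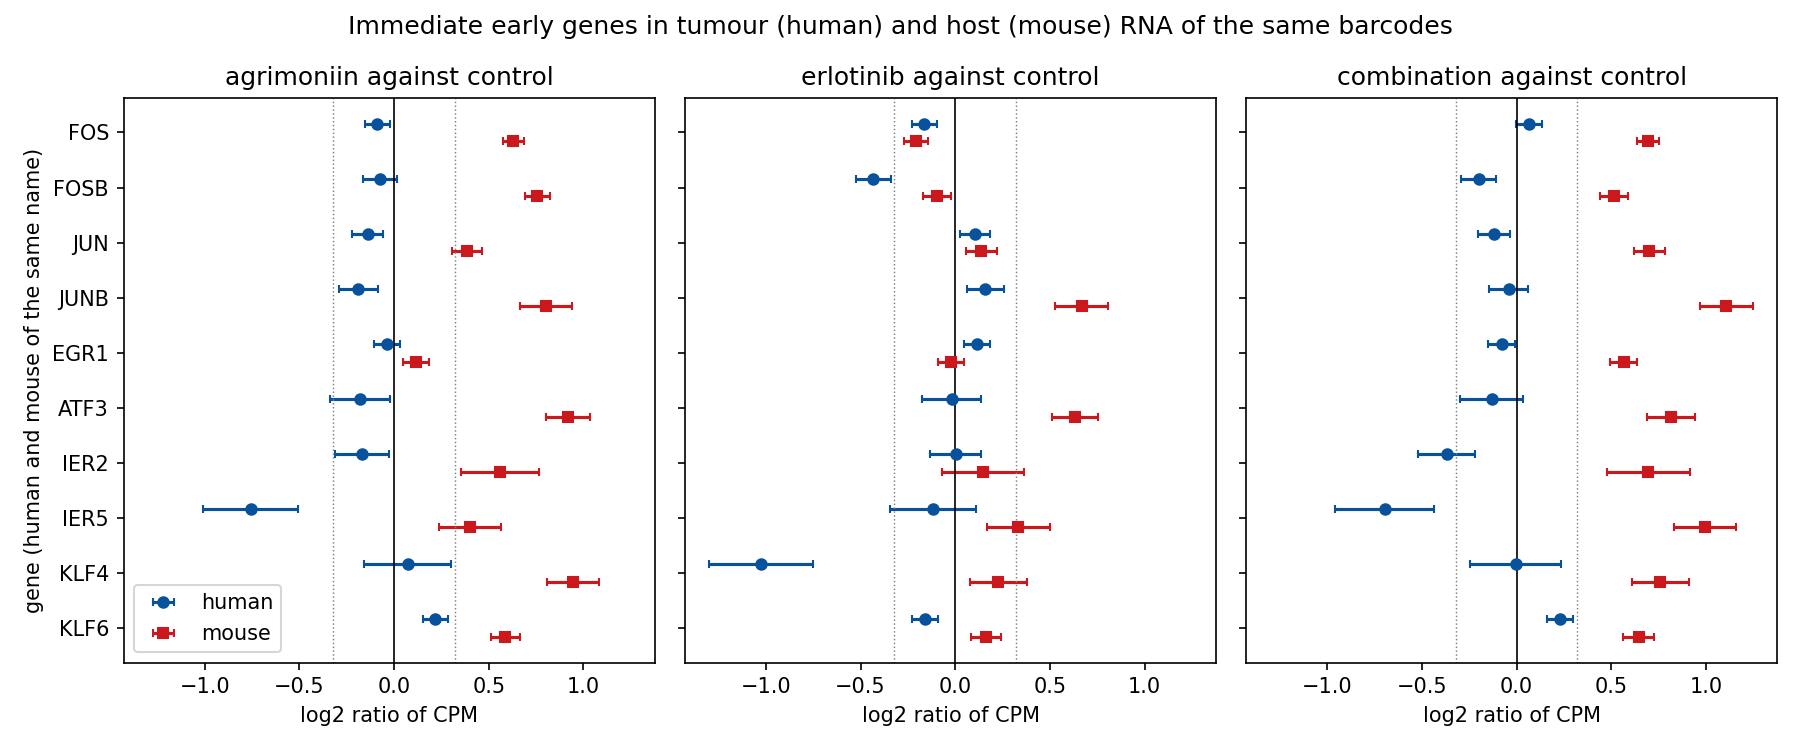
Log2 ratio of CPM of each gene in agrimoniin, erlotinib and combination against control (horizontal axis), for human genes (circles) and mouse genes of the same name in the same barcodes (squares). Whiskers are exact 95% intervals from counting error, dotted lines mark the threshold of 0.32 in either direction, and in agrimoniin and combination every mouse gene lies to the right of its human namesake.

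Set side by side within each comparison, the human log2 ratio was below the mouse one by at least 0.32 for 9 of 10 genes in agrimoniin, 6 of 10 in erlotinib and for all 10 in combination. Among same-name gene pairs at 50 CPM or more in both species, this held for 16.7% of 2309 pairs in agrimoniin, 17.8% of 2311 in erlotinib and 19.9% of 2299 in combination. The median of the human minus mouse difference was -0.78, -0.33 and -0.79 log2 for the members, and 0.05, 0.02 and 0.06 log2 for all pairs, in that order. Over all barcodes, EGR1 in agrimoniin was the single pair under the threshold there, at -0.15 log2. The mouse Egr1 ratio behind it depended on the set of parts, as given above. In erlotinib the widest gap was at KLF4, with -1.03 log2 for the human gene and 0.23 log2 for mouse Klf4. All of these differences rest on 1 library per group, and the same control barcodes enter each.

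Per barcode, the members took a median of 52.4 of 10000 human UMIs in agrimoniin (quartiles 30.3 and 86.7), 49.98 in erlotinib (25.4 and 88.5) and 56.7 in combination (31.4 and 92.4), against 56.8 in control (30.8 and 93.7). The human distributions overlapped almost fully. Of 10000 mouse UMIs in the same barcodes the median was 228 in agrimoniin (quartiles 118 and 323), 118 in erlotinib (63.5 and 203) and 212 in combination (99.7 and 351), against 116 in control (59.0 and 215). In the mouse parts the lower quartile of agrimoniin thus lay at about the median of erlotinib and of control. Human and mouse parts of a barcode share a library and a barcode, yet their summed members were nearly unrelated, with a Pearson correlation of 0.03 over 283 agrimoniin barcodes, -0.09 over 291 erlotinib barcodes and -0.01 over 244 combination barcodes, against 0.08 over 193 control barcodes.

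**Figure D3:**
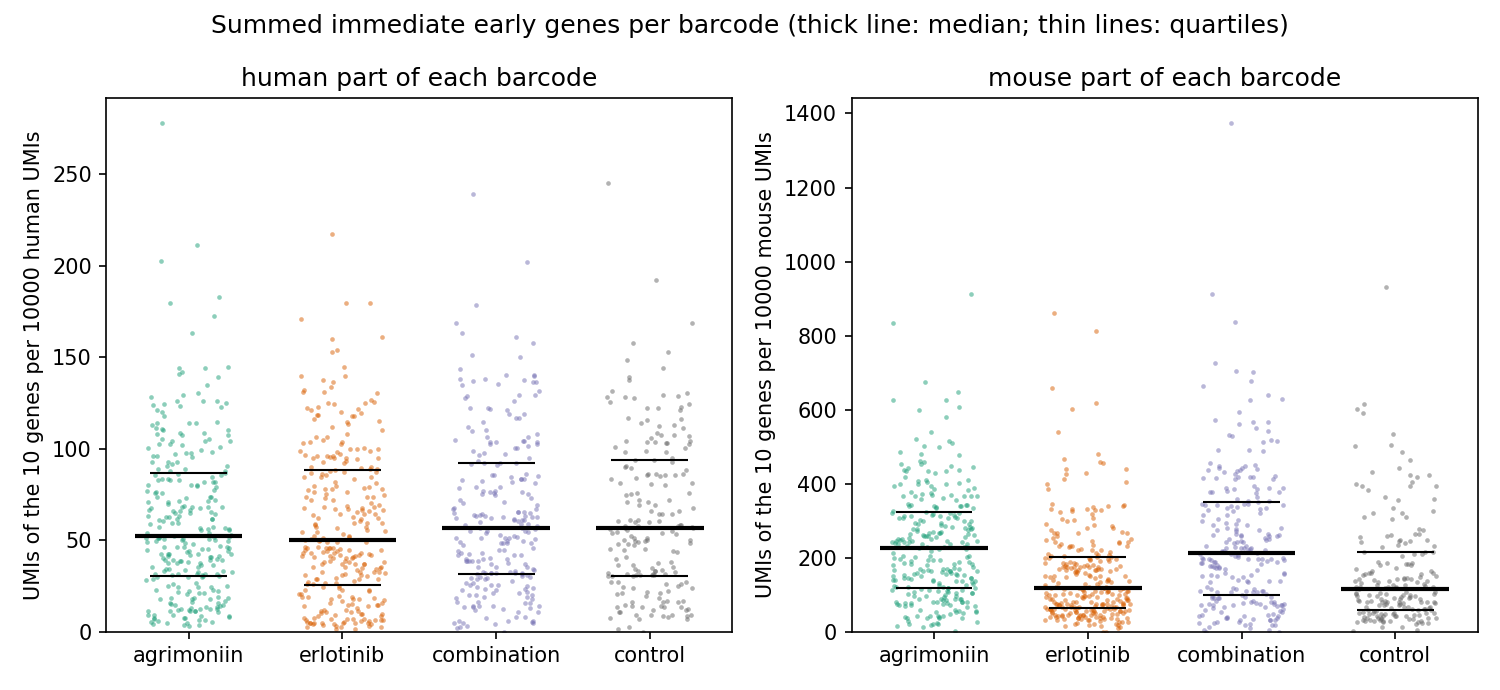
Summed UMIs of the 10 genes per 10000 UMIs of the human part (left) and the mouse part (right) of each barcode, which is 1 point. Thick lines are medians and thin lines quartiles; the human medians lie between 49.98 and 56.8, and the mouse medians of agrimoniin (228) and combination (212) lie above those of erlotinib (118) and control (116).

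**Figure D4:**
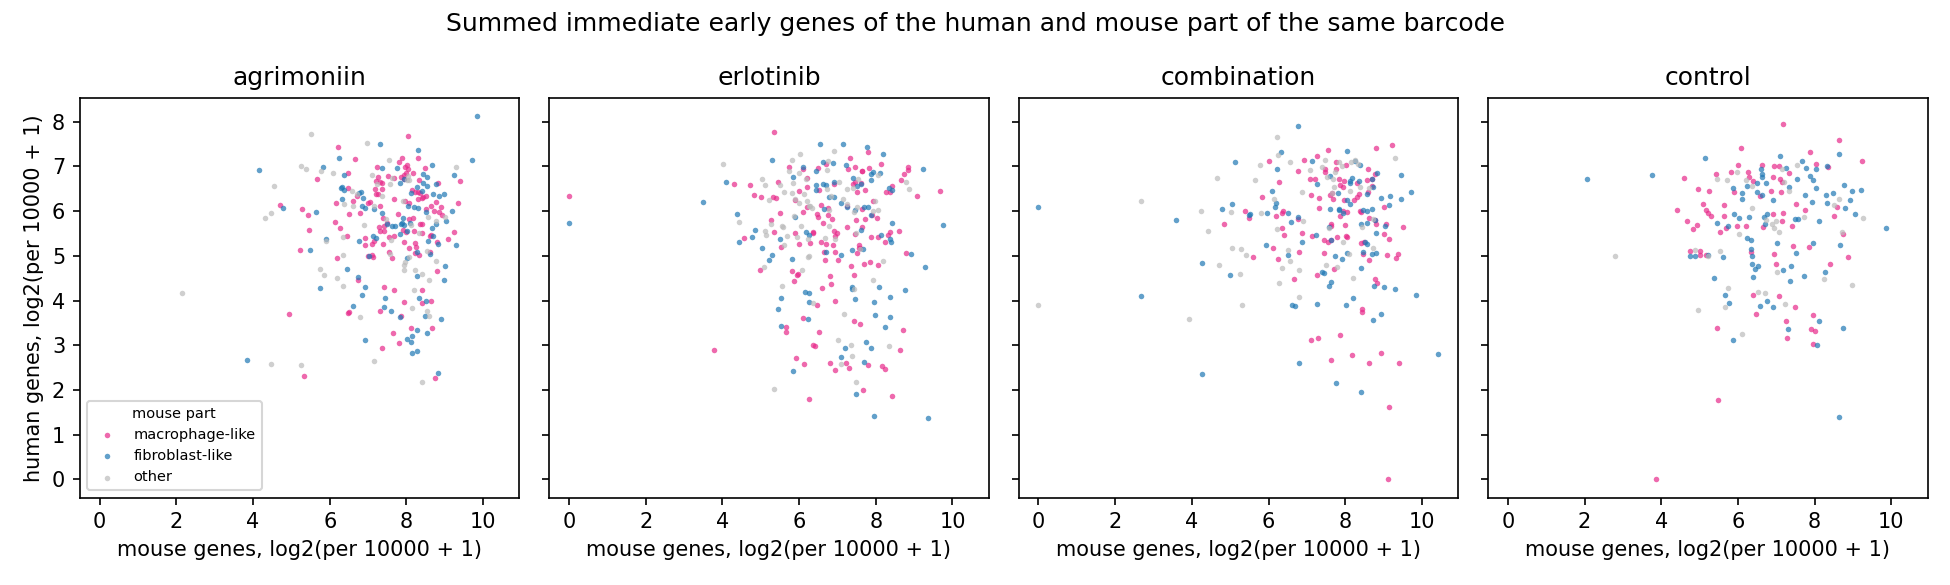
Summed human members against summed mouse members of the same barcode, both as log2 of UMIs per 10000 plus 1, in a panel for each library, with points coloured by the class of the mouse part. No panel shows a slope, and Pearson's r on this scale lies between -0.09 and 0.08.

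Within the tumour cells, the members varied together from part to part. Over the 45 pairs of members, the Pearson correlation across human parts, averaged over the 4 libraries, had a median of 0.37 and ran from 0.10 for IER5 with KLF4 to 0.71 for FOSB with EGR1. Against the sum of the other 9 members, JUN and EGR1 stood highest at 0.78 each, then FOSB at 0.75 and FOS at 0.67. ATF3 at 0.37, IER5 at 0.33 and KLF4 at 0.24 followed the rest least, so the pair of genes furthest from control in single libraries were also the least coupled, and they are among the lowest-count members, which limits such correlations. The 5 human genes most like the summed members, out of 4004, were HSPA1B and HSPA1A at 0.74 each, ZFP36 at 0.73, DUSP1 at 0.71 and BHLHE40 at 0.63. HSPA1A and HSPA1B encode nearly identical heat-shock proteins, so reads can be split between them and their separate levels are uncertain. ZFP36 encodes an mRNA-decay factor and DUSP1 a phosphatase of MAP kinases. All of these values share depth and library within a part and describe these barcodes only.

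The human members varied with a sign of RNA quality, least so in combination. Their summed level per part was correlated with the mitochondrial share of the human part. Pearson's r was -0.31 for agrimoniin, -0.21 for erlotinib and -0.11 for combination, against -0.21 for control. Spearman's rank correlation in combination was only -0.02. With the human UMIs of a part, Pearson's r was 0.24 for agrimoniin, 0.27 for erlotinib and 0.12 for combination, against 0.22 for control. In human parts with at most 10% mitochondrial UMIs the 10 genes summed to 7308 CPM in agrimoniin, 7041 CPM in erlotinib and 6495 CPM in combination, against 6945 CPM in control. In parts above 10% they summed to 5064 CPM in agrimoniin, 5079 CPM in erlotinib and 6506 CPM in combination, against 6195 CPM in control. The order of the libraries therefore differed between the 2 sets of parts. Where barcodes had at least 75% human UMIs, the sums were 6693 CPM in agrimoniin, 6773 CPM in erlotinib and 6597 CPM in combination, against 6945 CPM in control. The part that mitochondrial share and human share play in the single-gene differences was not tested beyond these values.

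Host parts were grouped by clustering on mouse genes other than the members, and clusters were named only from marker lists. Macrophage-like clusters were led by Ccl8 and Cbr2, by Ccl3 and Ccl4, and by Mmp12 and Adam8, and fibroblast-like clusters by Grem1 and C1qtnf3 and by Prg4 and Efemp1. In the Grem1 cluster 7 of 8 fibroblast markers were detected, with a median log2 ratio to the other parts of 1.27. Of the pericyte or smooth muscle markers 3 of 5 were detected, with a higher median of 2.68. Its name followed the larger share of a list detected. In macrophage-like parts the 10 mouse members summed to 22389 CPM in agrimoniin, 15952 CPM in erlotinib and 27541 CPM in combination, against 13518 CPM in control. In fibroblast-like parts they summed to 25346 CPM in agrimoniin, 19060 CPM in erlotinib and 27181 CPM in combination, against 17210 CPM in control. Agrimoniin and combination were thus above control in both classes, and combination was the highest in both. The median log2 ratio to control in macrophage-like parts was 0.86 in agrimoniin, 0.48 in erlotinib and 1.10 in combination, and in fibroblast-like parts 0.66, 0.26 and 0.63 in the same order.

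Clusters contributed unequally to these classes. The Prg4 cluster held 36 of the agrimoniin, 20 of the erlotinib and 22 of the combination mouse parts, against 9 of the control ones, and the Ccl8 cluster held 28, 32 and 23, against 9 in control. Within the Grem1 cluster, the best filled in control, the members summed to 22368 CPM in agrimoniin, 19189 CPM in erlotinib and 25036 CPM in combination, against 17316 CPM in control. Within the Ccl3 cluster they summed to 29060 CPM in agrimoniin, 22539 CPM in erlotinib and 33428 CPM in combination, against 19649 CPM in control. In each of the 5 clusters all treated libraries lay above control, with combination highest and erlotinib lowest of the treated. Single genes were less even, and Egr1 in macrophage-like parts was 1.06 times control in agrimoniin, 1.35 times in erlotinib and 2.87 times in combination (interval 2.50 to 3.30). In the Grem1 cluster Atf3 in combination was 0.878 times control (interval 0.676 to 1.13) and Klf4 1.03 times (0.853 to 1.23). Over all fibroblast-like parts, Jun in agrimoniin at a log2 ratio of 0.31 and Atf3 in combination at 0.30 fell short of the threshold. In monocyte-like parts the sums were 17940 CPM in agrimoniin, 9454 CPM in erlotinib and 17970 CPM in combination, against 12921 CPM in control, which there came from only 15 parts. Erlotinib was thus below control in monocyte-like parts, unlike in the macrophage-like and fibroblast-like ones.

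**Figure D5:**
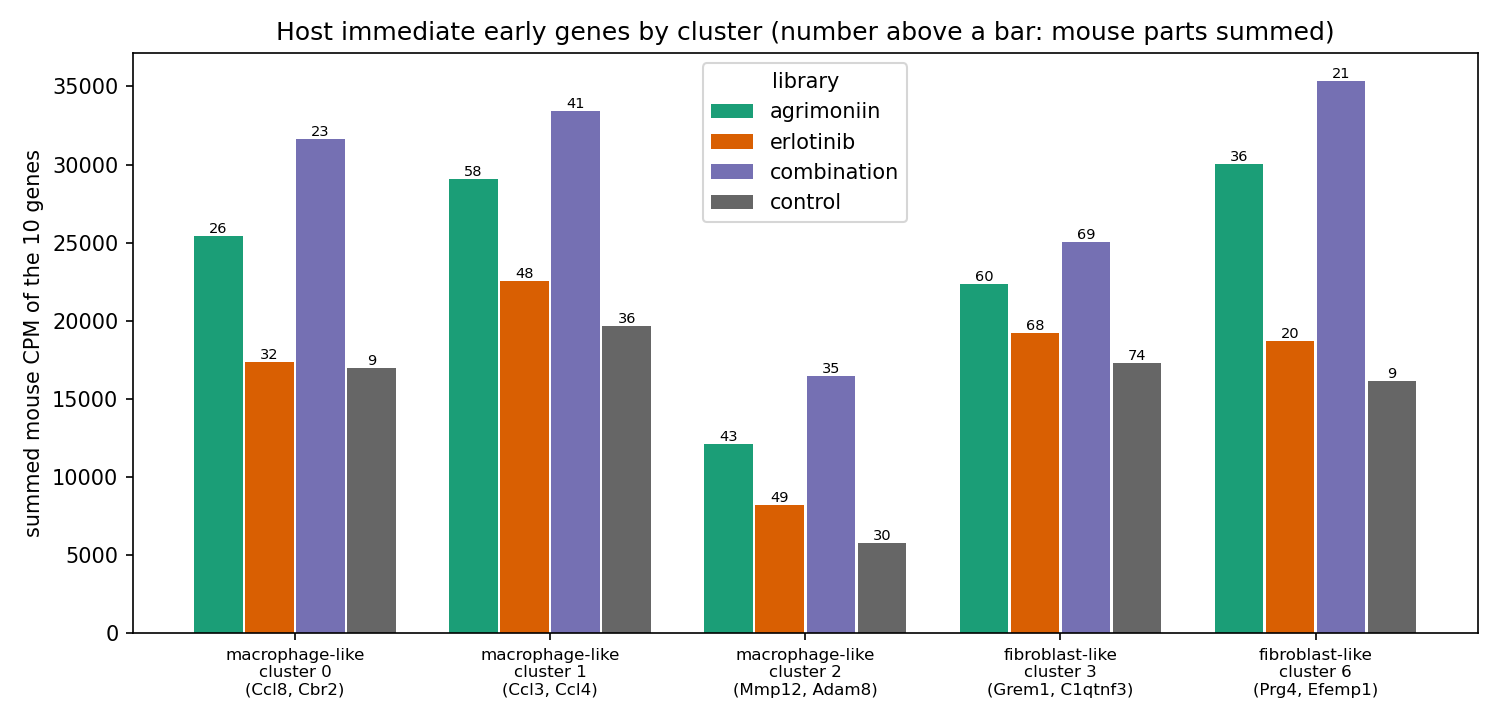
Summed mouse CPM of the 10 genes (vertical axis, from 0) in 3 macrophage-like and 2 fibroblast-like clusters, named with their leading genes, for agrimoniin, erlotinib, combination and control. Numbers above bars are the mouse parts summed (barcodes with both parts kept), and in every cluster shown the agrimoniin and combination bars exceed the control bar.

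Other genes of the same response were counted from lists over genes at 10 CPM or more. At this level 13.5% of 9251 human genes were higher and 9.12% lower in agrimoniin than in control, 14.2% of 9243 higher and 11.3% lower in erlotinib, and 13.4% of 9241 higher and 11.8% lower in combination. Of 20 other human immediate early genes, 2 were higher and 7 lower in agrimoniin, 0 higher and 5 lower in erlotinib, and 1 higher and 2 lower in combination. CCN2, a matricellular protein gene, was at 285 CPM in agrimoniin, against 152 CPM in control. SOCS3, an inhibitor of cytokine signalling, was at 147 CPM in agrimoniin, against 263 CPM in control. Of 8 human AP-1 subunits outside the members, 0 passed the threshold in agrimoniin, 1 was higher (MAFF) and 2 lower (MAFG and ATF7) in erlotinib, and 0 passed it in combination.

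Among 13 human relatives of EGR1, NR4A and the KLF factors, 2 were higher and 3 lower in agrimoniin, 1 higher and 4 lower in erlotinib, and 3 higher and 6 lower in combination. EGR4 was at 47.9 CPM in erlotinib, against 16.5 CPM in control, 2.90 times control (interval 2.05 to 4.19). KLF2, a relative of KLF4, was at 173 CPM in erlotinib, against 264 CPM in control, 1.52-fold lower. EGR3 was at 9.21 CPM in agrimoniin and 9.27 CPM in erlotinib, against 18.6 CPM in control. Relatives within a family thus differed in opposite directions in the same library.

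Upstream, 4 of 18 human kinases and ternary complex factors were higher and 1 lower in agrimoniin, 4 higher and 1 lower in erlotinib, and 2 higher and 0 lower in combination. ELK1, a ternary complex factor, was at 74.2 CPM in erlotinib, against 50.8 CPM in control. The ERK feedback genes, which ERK signalling induces and which dampen it, had 3 of 9 higher and 0 lower in agrimoniin, 0 higher and 2 lower in erlotinib, and 4 higher and 0 lower in combination. DUSP6, the phosphatase of ERK, was at 334 CPM in agrimoniin, 95.1 CPM in erlotinib and 312 CPM in combination, against 186 CPM in control. Over all parts, DUSP6 and KLF4 were both lowest in erlotinib, whereas EGR1 was highest there. That place of EGR1 did not hold in every set of parts, as given above. Of 8 human AP-1 target genes, 2 were higher and 1 lower in agrimoniin, 3 higher and 4 lower in erlotinib, and 1 higher and 2 lower in combination, and PLAU, the urokinase gene, was at 190 CPM in agrimoniin, against 131 CPM in control. None of 5 human genes of the integrated stress response, which induces ATF3, passed the threshold in any of the 3 comparisons.

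Heat-shock chaperones, which fold proteins and are induced by cell stress, were more often lower than higher in both species in the 2 libraries with agrimoniin. Of 11 human chaperone genes, 0 were higher and 5 lower in agrimoniin, 0 passed in erlotinib, and 0 were higher and 8 lower in combination, with median log2 ratios of -0.31, -0.08 and -0.39. HSPA6, a strictly stress-inducible chaperone gene, was at 21.9 CPM in agrimoniin, 101 CPM in erlotinib and 15.1 CPM in combination, against 95.02 CPM in control. Over all parts, HSPA6 thus was low in the same libraries as human IER5, whose erlotinib level turned direction between host classes as given above. Of 10 mouse chaperone genes, 0 were higher and 5 lower in agrimoniin, 2 higher and 2 lower in erlotinib, and 0 higher and 7 lower in combination. Among mouse genes at 10 CPM or more, 23.3% of 8790 were higher and 23.7% lower in agrimoniin, 26% of 8747 higher and 23.1% lower in erlotinib, and 23.7% of 8689 higher and 26.1% lower in combination.

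The other mouse immediate early genes resembled the mouse members. Of 20, 13 were higher and 1 lower in agrimoniin, 5 higher and 3 lower in erlotinib, and 15 higher and 1 lower in combination, with median log2 ratios of 0.41, 0.24 and 0.66. Dusp1 was at 1751 CPM in agrimoniin and 2059 CPM in combination, against 929 CPM in control. Nfkbia, the NF-κB inhibitor gene, was at 1685 CPM in combination, against 651 CPM in control. Of 9 other mouse AP-1 subunits, 2 were higher in agrimoniin, 5 in erlotinib and 7 in combination, and 0 were lower in all 3. Fosl1, a FOS relative, was at 63.8 CPM in agrimoniin, 47.9 CPM in erlotinib and 95.9 CPM in combination, against 30.1 CPM in control. The part of the host cell mix in these counts was not tested.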

How the data were processed

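The authors deposited UMI counts for each gene and barcode, made with Cell Ranger and builds hg38 and mm10, per the submitters' processing notes (no version given). A warm collagenase II digestion came before loading, aimed at 8000 cells, per the labels' protocols. Barcodes were 27 bases long, unlike those of the 10x kit in the labels, which leaves the platform unclear.

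A human or mouse part was kept with at least 500 UMIs, 250 genes and at most 25% mitochondrial UMIs. Human values come from 1013 parts and mouse values from 1011 barcodes with both parts kept. UMIs were summed per library and scaled per 1e6 UMIs of that species. Ratios have exact 95% intervals conditional on the sum of both counts, covering counting error only. Leiden clusters of mouse parts came from scanpy 1.11.5 at resolution 0.5, on 20 principal components of 2000 variable genes with 15 neighbours. No doublet caller was run. No p-value was computed. The cluster naming rule was set after seeing the clusters, and members, lists and markers were chosen with earlier results of these data known. From each list, up to 3 genes with the largest change per comparison could be named. Ratios were tested on simulated Poisson counts, the model that their intervals assume. The simulation left out the spread between parts, so it cannot check the intervals against that spread. Depth was 2420470 to 3775711 human and 865029 to 1334906 mouse UMIs per library.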

Additional observations from a re-analysis of the deposited data

Results flagged for a closer look

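In 3 cases the human gene and the mouse gene of the same name lay past a log2 ratio of 0.32 in opposite directions in the same comparison with control. IER5 in agrimoniin had a human minus mouse log2 ratio of -1.16, with human IER5 at 67.7 CPM against 114 CPM in control and mouse Ier5 at 600 CPM against 455 CPM in control. With at most 10% mitochondrial UMIs in the human part, the mouse Ier5 log2 ratio was 0.28, short of 0.32, against 0.40 over all barcodes. IER5 in combination had a difference of -1.69, with human IER5 at 70.8 CPM against 114 CPM in control and mouse Ier5 at 906 CPM against 455 CPM in control. IER2 in combination had a difference of -1.06, with human IER2 at 232 CPM against 300 CPM in control and mouse Ier2 at 455 CPM against 281 CPM in control. At a human mitochondrial share of at most 10%, the mouse Ier2 log2 ratio was 0.3197, against 0.70 over all barcodes. That is just short of the threshold, which unrounded is 0.3219. As a mean over parts, the human IER2 log2 ratio was -0.28, also short of it. With 1 library per group, these differences between species were not tested.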

How the results depend on the processing

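Over 330 recomputed human and 360 mouse single-gene values, results short of the threshold turned direction and passed it in erlotinib against control for mouse Jun (-0.32) and Ier2 (-0.52) with at least 75% human UMIs, mouse Egr1 (0.43) in macrophage-like parts and human IER5 (0.37) beside fibroblast-like parts. Of 5 human results past the threshold against control, all 55 recomputed values kept their direction and 53 stayed past it, and of 22 mouse ones all 264 and 252. The remaining parts, above 10% mitochondrial UMIs or under 75% human UMIs, were not among these recomputed values. Above 10%, human FOSB, JUN, JUNB, EGR1, IER2, IER5 and KLF4 were lower than control past the threshold in agrimoniin. FOSB, ATF3, KLF4 and KLF6 were so in erlotinib, and IER5 and KLF4 in combination. The share of all human genes past it in those parts is not given here. Human KLF4 above 10% was at 65.5 CPM in agrimoniin, against 116 CPM in control. Human IER2 there was at 212 CPM in combination, against 262 CPM in control, short of the threshold. The mouse median (log2, against control) was 0.49 in agrimoniin, -0.11 in erlotinib and 0.59 in combination in barcodes with at least 75% human UMIs, and 0.86, 0.48 and 1.10 in macrophage-like parts. It was 0.024 in erlotinib as a mean over parts and 0.59 in combination at a mitochondrial share of at most 10%. At that share the human median was -0.30 for combination against erlotinib and -0.17 for combination against agrimoniin. The human minus mouse median was -0.98, -0.54 and -1.19 with macrophage-like parts, and -0.19 for erlotinib with at least 75% human UMIs. Chosen after seeing the data, human parts beside macrophage-like mouse parts gave human medians of -0.24 (erlotinib against control), 0.052 (combination against erlotinib) and -0.040 (erlotinib against agrimoniin) and a human minus mouse median of -0.50 in erlotinib; beside fibroblast-like parts these were -0.14 for combination against agrimoniin and -0.15 for human minus mouse in erlotinib. The cause was not tested. No paired analysis was possible because each group had 1 library, and for the same reason no replicate could be left out. Depth limits IER5 and KLF4 most, with 197 to 412 UMIs per library.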
